A study of Mus musculus with 5 samples.

Results

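The T cells of mouse lungs carrying 4T1 metastases were described from the cell table that the authors deposited, as the cells of its class T Cells in 5 single-cell libraries. The class held 3192 of 22118 annotated cells, out of 23852 cells in all, and the table split it into 2 cell types. These were T Cells (3002 cells) and DN T Cells (190 cells). The abbreviation DN is not spelled out in the column descriptions. In immunology it usually stands for double negative, that is T cells with neither the CD4 nor the CD8 co-receptor, and this reading was not tested against expression here.

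Female BALB/c mice, 6 weeks old at the first injection, received 200 μL of control medium (CM) or of tumor-secreted factors (TSF) by vein, 3 times per week for 3 weeks. TSF was medium conditioned by pieces of mammary tumors. The paper names 4T1 tumors for the single-cell experiment, and the sample descriptions give 4T1 or EMT6.5. All mice of the libraries described here then received 25000 CD90.1-expressing 4T1 cells, a mouse mammary carcinoma line. Lungs were taken at day 11, called seeding, from mice labelled 10 weeks old, or at day 16, called colonization, from mice labelled 11 weeks old. The TSF group of day 11 was sequenced as libraries a and b and the other 3 groups as a single library, and each group was made from pooled lungs of 3 mice. No group without cancer cells was used here, so all comparisons are between lungs with metastases, and differences between mice were not measured.

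T cells are lymphocytes that recognise antigen through a T cell receptor, a pair of chains held at the surface by the CD3 proteins. The co-receptor CD4 marks helper and regulatory T cells and the co-receptor CD8 marks cytotoxic T cells, which can kill tumor cells. The lung also houses T cells without either co-receptor, among them cells with a receptor of gamma and delta chains. In tumor-bearing lungs, T cells are studied beside neutrophils and natural killer (NK) cells as part of the setting in which cancer cells grow.

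The genes taken here as markers of T cells were Cd3e (a CD3 chain), Trbc2 (a constant segment of the receptor beta chain), Cd4 and Cd8a. The paper does not name the markers by which its authors annotated the class. In GENCODE M21, on the build GRCm38 that the authors mapped to, Cd3e lies on chromosome 9 from 44998740 to 45009627 on the minus strand, and Trbc2 on chromosome 6 from 41546730 to 41548352 on the plus strand. Cd4 lies on chromosome 6 from 124864692 to 124888221 on the minus strand, and Cd8a on chromosome 6 from 71373427 to 71379173 on the plus strand. No expression matrix of T cells was analysed here, so the label of the class could not be checked against these genes. What could be read was which genes the authors let into their first clustering, of all merged cells. It used 1000 highly variable genes, 4.21% of the 23771 genes in the deposited gene table.

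Among 11 genes of the T cell receptor and CD3 complex, 7 were in that set, Cd3e, Cd3d, Cd3g, Trac, Trbc1, Trbc2 and Trdc. The 4 left out were Cd247, the CD3 zeta chain, and the gamma chain constant genes Tcrg-C1, Tcrg-C2 and Tcrg-C4. Of the 3 co-receptor genes, Cd8a and Cd8b1 were in the set and Cd4 was not. All 8 genes listed for cytotoxic and type 1 cells were in it (the granzymes Gzma, Gzmb and Gzmk, the pore-forming protein Prf1, Nkg7, the chemokine Ccl5, Ifng and its regulator Tbx21), as were the 3 genes of regulatory T cells (Foxp3, Il2ra and Ctla4). Of 6 listed genes of naive and homing T cells 4 were in it, Ccr7, Lef1, Tcf7 and Il7r. None of the 4 genes listed for type 17 cells (Il17a, Il17f, Ccr6 and Il23r) or of the 5 for type 2 cells (Gata3, Il4, Il5, Il13 and Ccr4) was in it, and of 5 checkpoint and exhaustion genes only Tigit was. The first clustering was therefore drawn with the CD8 genes and without Cd4 or the cytokines of type 2 and type 17 cells. Which genes entered the authors' later clustering of T cells alone was not read here, and the cell type labels follow its sub-clusters. The lists were written after the deposited files had been seen, and the set was chosen by the authors on all cells of the merged libraries. These counts thus describe the first clustering and not expression in T cells.

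The same genes could be counted after ambient RNA correction in cells that are not T cells, the cancer cells of day 16 (139 from TSF and 29 from CM lungs). Trbc2, Cd4 and Cd8a had a UMI (a counted RNA molecule) in no cancer cell, where 0 cells allows a share of up to 2.16% in TSF and 10.3% in CM, taken as 3 cells of the total. The authors had subtracted estimated ambient RNA before these counts were made, so low counts here are in part set by that step. Cd3e had a UMI in 3 TSF cancer cells and in no CM cancer cell. Of the 11 receptor and CD3 genes, 6 were in no cancer cell, and the most frequent, Trac, was in 2 cells of each library. By contrast Gata3, listed here for type 2 T cells, was in 113 TSF and 18 CM cancer cells, and Tigit in 62 and 5, so those genes were not particular to T cells in these lungs. Ccl5 was in 15 TSF and 0 CM cancer cells and Tcf7 in 13 and 2. These were not the only other listed genes with a UMI in cancer cells.

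The libraries held 3738 to 5113 annotated cells and 13240822 to 21451787 UMIs each, and between 571 and 729 T cells. Libraries TSF a and TSF b did not differ in the share of DN T Cells (chi-square 0.000137 with 1 degree of freedom, p = 0.991). Across the 16 initial clusters that held T cells they did differ (chi-square 35.0 with 15 degrees of freedom, p = 0.00245), less than any other pair of libraries, for which chi-square lay between 44.3 and 293. Their mean was used as 1 sample in all ratios, and the values of both are given. Each group thus counted as 1 sample, so differences between groups could not be set against replicates and were not tested, and chi-square was used solely to find repeated libraries. Over the 10 pairs of libraries, T cells shared 9 cell barcodes in sum, with 0 to 3 per pair and 1 between TSF a and TSF b.

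The first question was how large a part of the lung the T cells made up. At day 11 they took 15.3% of annotated cells in CM lungs (572 of 3738 cells, with a 95% interval from 14.2 to 16.5%), 14.3% in TSF a (729 of 5113, 13.3 to 15.2%) and 13.8% in TSF b (664 of 4804, 12.9 to 14.8%). At day 16 they took 18.4% in CM lungs (656 of 3567, 17.1 to 19.7%) and 11.7% in TSF lungs (571 of 4896, 10.8 to 12.6%). CM at day 16 was thus the highest of the 5 libraries and TSF at day 16 the lowest, and the day 11 libraries lay close together between them. The TSF share over the CM share gave 0.917 at day 11, with an interval of 0.832 to 1.01, and 0.634 at day 16, with an interval of 0.566 to 0.711. These intervals are exact, Clopper-Pearson for shares and conditional for ratios, and cover counting error only.

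In the CM libraries the T cell share rose from day 11 to day 16 by a ratio of 1.20 (interval 1.07 to 1.35), whereas in the TSF libraries it fell, with a ratio of 0.831 (interval 0.752 to 0.916). Granulocytes, the class that holds neutrophils, moved with this result. There were 3.43 T cells per granulocyte in CM at day 11, 3.12 and 2.80 in TSF a and b, 3.07 in CM at day 16 and 0.401 in TSF at day 16. With granulocytes left out of the denominator, the ratio of TSF to CM at day 16 was 0.841 (interval 0.750 to 0.942), and the ratio of day 16 to day 11 in the TSF libraries turned to 1.12 (interval 1.01 to 1.23). That interval reached 1 without TSF b (1.10, 0.985 to 1.23) and at 1500 UMIs or more (1.10, 0.984 to 1.23). Without granulocytes, and with no UMI limit, the T cell share was 16.0% in CM and 14.7% in TSF at day 11 (mean of a and b). At day 16 it was 19.6% in CM and 16.5% in TSF. More T cells, fewer other cells and unequal recovery of cells from the tissue cannot be told apart in shares of a library.

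The second question was whether the cell types within the class moved alike. DN T Cells made up 3.67% of T cells in CM lungs of day 11 (21 of 572, 2.29 to 5.56%). They made up 6.31% in TSF a (46 of 729, 4.66 to 8.33%) and 6.33% in TSF b (42 of 664, 4.60 to 8.45%). At day 16 they made up 4.73% in CM lungs (31 of 656, 3.23 to 6.64%) and 8.76% in TSF lungs (50 of 571, 6.57 to 11.4%). All 3 TSF libraries therefore lay above both CM libraries. The interval of TSF at day 16 lay wholly above that of CM at day 11, and those of the other pairs of a TSF and a CM library overlapped. The ratio of TSF to CM was 1.72 at day 11 (interval 1.06 to 2.92) and 1.85 at day 16 (interval 1.16 to 3.00), and the libraries of the 2 days are separate. With TSF b alone at day 11 the ratio was also 1.72, with an interval that reached 1 (0.998 to 3.06), and with TSF a alone it was 1.72 (interval 1.01 to 3.03).

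**Figure D1:**
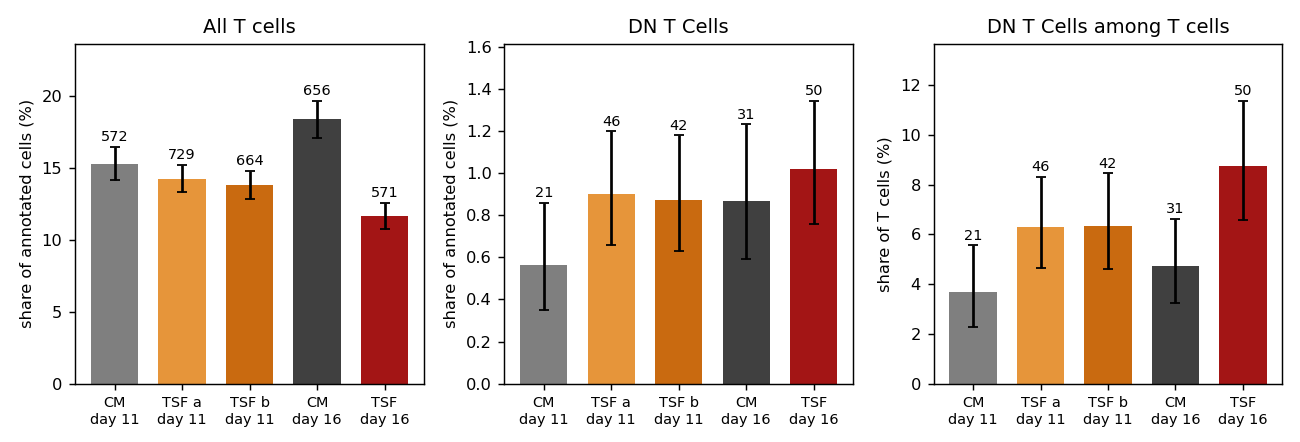
Bars show the share of each library (%) taken by all T cells among annotated cells, by DN T Cells among annotated cells and by DN T Cells among T cells, with the number of cells above each bar; error bars are exact 95% binomial intervals and cover counting error only. The T cell share was highest in CM at day 16 (18.4%) and lowest in TSF at day 16 (11.7%), while the share of DN T Cells among T cells was above both CM libraries in all 3 TSF libraries.

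Against the lung as a whole, it was the larger type that took a smaller share in TSF lungs. The type T Cells made up 14.7% of annotated cells in CM at day 11, 13.4% and 12.9% in TSF a and b, 17.5% in CM at day 16 and 10.6% in TSF at day 16. Its TSF share over its CM share gave 0.892 at day 11, with an interval of 0.807 to 0.988, and 0.607 at day 16, with an interval of 0.540 to 0.683. The day 11 interval reached 1 without TSF b (0.906, 0.809 to 1.02), among leukocytes (0.928, 0.840 to 1.03) and among leukocytes without granulocytes (0.938, 0.849 to 1.04). DN T Cells made up 0.562% of annotated cells in CM at day 11, 0.900% and 0.874% in TSF a and b, 0.869% in CM at day 16 and 1.02% in TSF at day 16. The ratio at day 11 was 1.58 (0.973 to 2.68) and that of day 16 was 1.18 (0.736 to 1.90), and both intervals held 1. At day 11 the lower bound was near 1 and its side depended on the setting, with 1.64 among leukocytes (1.01 to 2.79), 1.66 among leukocytes without granulocytes (1.02 to 2.81), 1.81 among cells of at most 5% mitochondrial UMIs (1.08 to 3.19) and 1.67 with cluster 50, described further on, in place of the DN label (1.06 to 2.75). Without granulocytes in the denominator the DN ratio of day 11 was 1.58 (0.976 to 2.69) and that of day 16 was 1.56 (0.976 to 2.52). With the same denominator the type T Cells had ratios of 0.895 at day 11 (0.810 to 0.991) and 0.805 at day 16 (0.715 to 0.906). Among leukocytes with granulocytes kept, the day 16 ratio fell to the other side of 1, at 0.949 (0.595 to 1.54).

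Between the days no difference in the DN share was detectable at this number of cells. Among T cells the DN share of day 16 over day 11 gave a ratio of 1.29 in CM (interval 0.716 to 2.36) and 1.39 in TSF (interval 0.959 to 1.98), and both intervals held 1. The CM value rests on 21 and 31 cells.

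The T cells were next set against the other lymphocytes of the same library, which does not depend on granulocytes. B cells make antibodies and NK cells kill without an antigen receptor. There were 1.01 T cells per B cell in CM at day 11, 1.06 and 0.979 in TSF a and b, 1.53 in CM at day 16 and 1.56 in TSF at day 16. The number of T cells per B cell was thus near 1 in the 3 libraries of day 11 and near 1.5 in both of day 16, and TSF over CM gave 1.01 at day 11, with an interval of 0.882 to 1.17, and 1.02 at day 16, with an interval of 0.849 to 1.22. Among cells of at least 1500 UMIs that ratio was 1.38 for day 11 (1.13 to 1.64) and 1.35 for day 16 (1.09 to 1.69). That limit left out 22.3 to 67.3% of the B cells of a library and 13.3 to 29.9% of its T cells, so the near equality of TSF and CM was seen in the cells as deposited and not among deeper ones.

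There were 7.33 T cells per NK cell in CM at day 11, 4.10 and 3.46 in TSF a and b, 5.96 in CM at day 16 and 4.02 in TSF at day 16. Here the TSF libraries lay below both CM libraries. TSF over CM gave 0.515 at day 11, with an interval of 0.389 to 0.671, and 0.674 at day 16, with an interval of 0.508 to 0.894. Among cells of at least 1500 UMIs the day 16 ratio was 0.881 and its interval held 1 (0.623 to 1.25). Per cancer cell, T cells numbered 95.3 in CM at day 11, where only 6 cancer cells were found, 22.8 and 15.4 in TSF a and b, 22.6 in CM at day 16 and 4.11 in TSF at day 16.

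Depth differed between the cell types and between the libraries. The type T Cells had a median of 1934 UMIs per cell in CM at day 11, 1737 and 1982.5 in TSF a and b, 2547 in CM at day 16 and 2019 in TSF at day 16. DN T Cells had 2346, 2037.5, 2298, 2907 and 2290.5 UMIs in the same order. In each of the 5 libraries the DN median was the higher one, and so was the median number of genes per cell (1020 against 781 in CM at day 11, and 1034.5 against 820 in TSF at day 16). Because DN T Cells and T Cells differed in depth, the DN share was also taken among T cells of 1500 to 3000 UMIs, where the ratio of TSF to CM was 2.08 at day 11 (interval 1.13 to 4.14) and 2.30 at day 16 (interval 1.20 to 4.64). The upper limit fell unevenly on the libraries. The upper quartile of DN T Cells was 3427.5 UMIs in CM at day 16 and 2743.25 in TSF at day 16, so a larger part of the CM cells was cut. With the lower limit of 1500 UMIs alone, the ratio was 1.85 at day 11 (interval 1.08 to 3.35) and 1.94 at day 16 (interval 1.19 to 3.22).

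The CM library of day 16 stood apart. Its T cells had a median of 2568 UMIs, against 1753 to 2038 in the other 4 libraries, and all cells of that library had a median of 2721 UMIs against 2235.5 to 2376. Its T cells also showed more genes for the same number of UMIs. In T cells of 2000 to under 2500 UMIs the median was 985 genes (quartiles 938 and 1071, 127 cells) in CM at day 16, 830 in CM at day 11, 838 and 845 in TSF a and b, and 876 in TSF at day 16. The median of CM at day 16 was above that of every other library in each of the 4 UMI ranges tried from 1000 UMIs upward, by ratios of 1.06 to 1.19.

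This held in the other lymphocytes too, hardly in endothelial cells, and not at every depth in fibroblasts and monocyte-derived cells. In the same range of 2000 to under 2500 UMIs, B cells had a median of 1028 genes in CM at day 16 and 898 to 930 in the other libraries, and NK cells 1174.5 and 1024 to 1090.5. TSF at day 16 had the next highest median of this range in T cells (876), NK cells (1090.5) and B cells (930, beside 929 in TSF a). Endothelial cells, which line blood vessels, had 1284 genes in CM at day 16 and 1238 to 1281 in the others. Fibroblasts had 1150.5 and 1162 to 1220, and monocyte-derived cells 1085 and 1064.5 to 1121. In the range from 1500 UMIs monocyte-derived cells had 989 in CM at day 16 and 879.5 to 911.5 in the others, and in that from 1000 UMIs 627 and 686.5 to 728. In the range from 2500 UMIs fibroblasts had 1407.5 and 1310 to 1362.5. Within T cells the difference was present inside initial clusters as well, with 985 genes in cluster 25 against 804 and 824 in the 2 other libraries with at least 10 such cells, and 984 in cluster 44 against 814 to 861 in 3. It was smaller in cluster 3, with 934 against 792 to 863 in 4 libraries. DN T Cells had 1074 genes in CM at day 16, from only 3 cells, and 961.5 to 1056 in the other libraries. The median percent of mitochondrial UMIs per T cell was 2.23% in CM at day 16, the lowest of the 5, and 2.74% in TSF at day 16, the highest, with 2.33 to 2.58% at day 11. The part that depth plays in the T cell results of day 16 was not tested beyond the settings given.

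**Figure D2:**
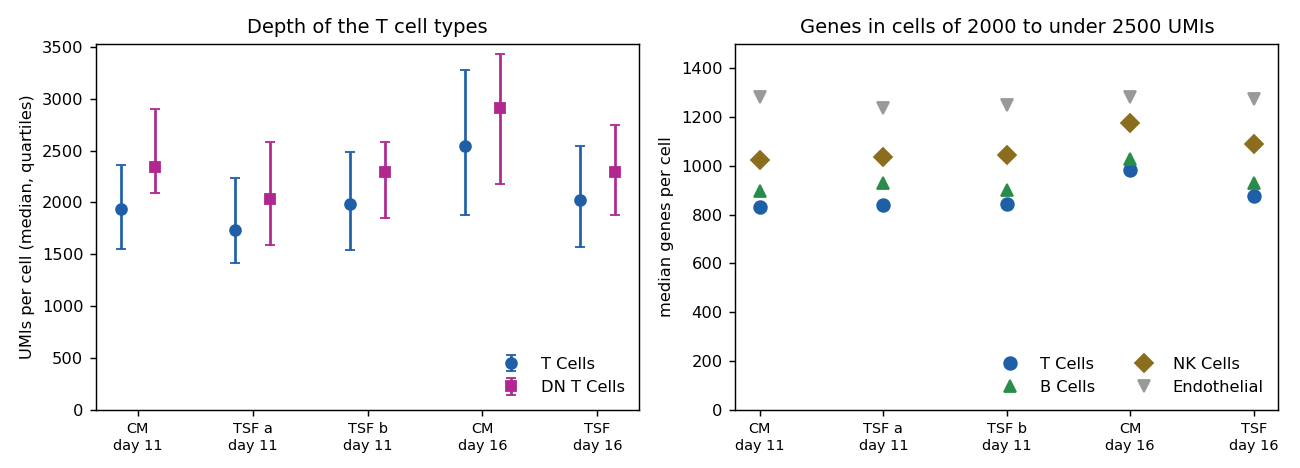
Left, UMIs per cell (median with quartiles) of the 2 cell types in each library; right, the median number of genes per cell among cells of 2000 to under 2500 UMIs, for T cells, B cells, NK cells and endothelial cells. DN T Cells had the higher median in every library, and T, B and NK cells of CM at day 16 had more genes at the same depth than in the other 4 libraries (985 against 830 to 876 in T cells), while endothelial cells differed little.

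Finer structure within the class came from the clusters of the authors. The first clustering of the merged cells put the T cells into 16 clusters, which carry only numbers, and no gene was read to name them. DN T Cells were nearly all in cluster 50, which held 185 of the 190, beside 28 cells of the type T Cells. Of the other 5 DN T Cells, 3 were in cluster 97 and 1 each in clusters 118 and 136. Taking all T cells of cluster 50 in place of the DN label gave shares of 4.02% in CM at day 11, 7.41% and 7.23% in TSF a and b, 5.49% in CM at day 16 and 9.11% in TSF at day 16. The ratios of TSF to CM were then 1.82 (interval 1.15 to 3.00) and 1.66 (interval 1.06 to 2.61). Cluster 50 and the DN label hold mostly the same cells, so these ratios are no separate check of the DN result.

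Of the 16 clusters, 3 took a larger share of T cells in TSF than in CM at day 11 with an interval above 1 (clusters 50, 67 and 97) and 2 a smaller share with an interval below 1 (44 and 54). At day 16 there were 3 above (27, 50 and 59) and 3 below (44, 54 and 56). The interval of cluster 97 at day 11 held 1 without TSF a (1.14, 0.656 to 1.99) and among T cells of at least 1500 UMIs (1.75, 0.889 to 3.75), and that of cluster 27 at day 16 held 1 at that limit (1.88, 0.998 to 3.62). Only clusters 50, 44 and 54 had an interval apart from 1 at both days, each on the same side, while further clusters had ratios on the same side with an interval that held 1. For cluster 54 the day 11 interval reached 1 without TSF b (0.677, 0.442 to 1.03), and for cluster 44 the day 16 interval did so at 1500 UMIs (0.666, 0.426 to 1.02). Cluster 44 took 9.97% of T cells in CM at day 11, 3.98% and 6.02% in TSF a and b, 11.0% in CM at day 16 and 6.83% in TSF at day 16. Cluster 54 took 8.92%, 6.04%, 4.97%, 10.5% and 4.20% in the same order. Both clusters were lower in each TSF library than in either CM library. The intervals were not adjusted for the 16 clusters, and cluster sizes also move where the genes that define a cluster change, which was not tested. TSF a and TSF b, libraries of 1 group, themselves differed over these clusters beyond counting error (chi-square 35.0 with 15 degrees of freedom, p = 0.00245). The cluster intervals leave that spread out, so an interval apart from 1 does not set a cluster apart from differences between libraries of 1 group.

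The largest ratios of TSF to CM were at day 16. Cluster 59 took 9.46% of T cells in TSF at day 16 (54 cells, 7.18 to 12.2%) and 2.44% in CM (16 cells, 1.40 to 3.93%), and the ratio was 3.88 with an interval of 2.19 to 7.26. At day 11 it took 4.72% in CM and 3.98% and 3.92% in TSF a and b. From day 11 to day 16 its share went in opposite directions, with ratios of 0.517 in CM (interval 0.260 to 0.994) and 2.40 in TSF (interval 1.61 to 3.55). Cluster 56 took 15.9% in CM at day 16 (104 cells, 13.1 to 18.9%), 4.55% in TSF at day 16 and 1.92 to 3.50% in the 3 libraries of day 11. The CM library of day 16 gave 56.2% of all T cells in cluster 56, the only one of the 16 with over 50% from 1 library. As CM at day 16 was 1 library, what is particular to that library and what belongs to its condition cannot be told apart. Among T cells of at least 1500 UMIs the share of cluster 56 in TSF over CM at day 16 was 0.283, beside 0.287 for all.

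**Figure D3:**
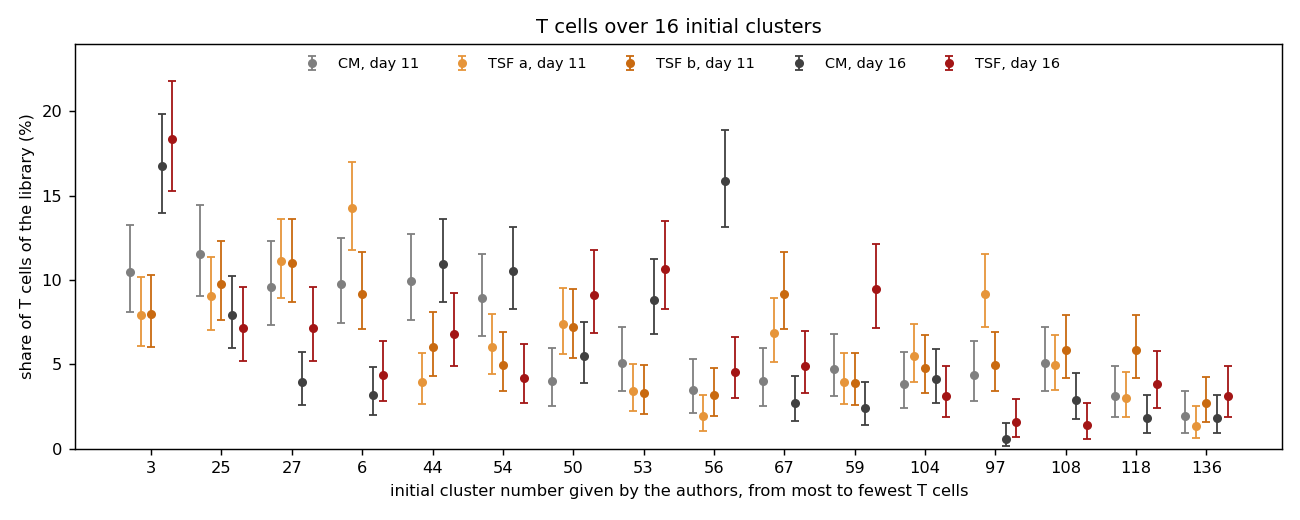
Points give the share of the T cells of each library (%) in each of the 16 initial clusters, ordered by their number of T cells, with exact 95% binomial intervals for counting error. Cluster 56 stood at 15.9% in CM at day 16 and below 5% in the other libraries, cluster 59 at 9.46% in TSF at day 16, and clusters 6 and 97 were lower in both libraries of day 16 than in all of day 11.

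Day 16 differed from day 11 in the same direction in CM and in TSF for 6 clusters, with both intervals apart from 1. Clusters 3, 53 and 56 took larger shares at day 16, and clusters 6, 27 and 97 smaller ones. Cluster 3, the largest, went from 10.5% to 16.8% of T cells in CM (ratio 1.60, interval 1.16 to 2.23) and from a mean of 7.97% to 18.4% in TSF (ratio 2.31, interval 1.75 to 3.04). Cluster 97 went from 4.37% to 0.610% in CM and from 9.19% and 4.97% in TSF a and b to 1.58%. For cluster 6 the ratio of day 16 to day 11 was 0.327 in CM (interval 0.188 to 0.549) and 0.373 in TSF (interval 0.232 to 0.565). Clusters 97 and 6 had the lowest depth of all, with medians of 1398.5 and 1511 UMIs against 1763.5 to 3077 in the others. For cluster 53 the rise in CM (ratio 1.74) was gone among T cells of at least 1500 UMIs, with a ratio of 0.994. For cluster 56 the TSF ratio of 1.79 (1.05 to 3.10) had an interval that held 1 at that limit (1.58, 0.884 to 2.77) and without TSF a (1.44, 0.779 to 2.69).

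In percentage points, clusters 6 and 97 differed most between TSF a and TSF b, and by ratio clusters 136 (1.37% and 2.71%) and 118 (3.02% and 5.87%) did. Cluster 97 held 9.19% of T cells in TSF a (interval 7.19 to 11.5%) and 4.97% in TSF b (interval 3.45 to 6.91%), and cluster 6 held 14.3% and 9.19%. T cells of TSF a had the lowest median depth of all libraries, 1753 UMIs, and those of TSF b had 1996.5.

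**Figure D4:**
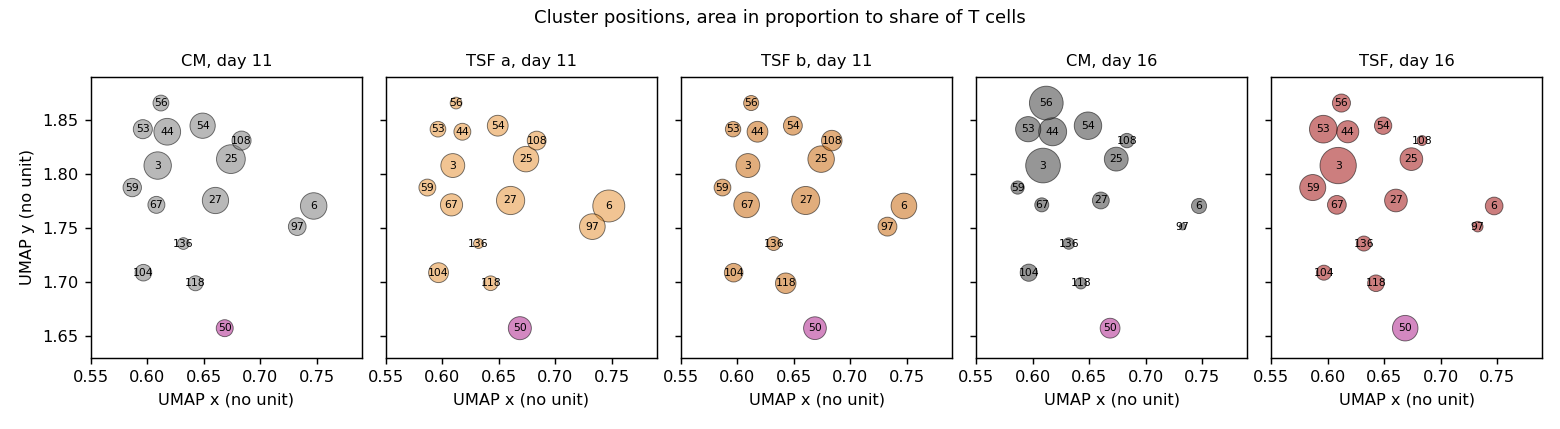
Circles stand at the median position of the T cells of each initial cluster in the UMAP of all cells, a projection whose axes have no unit, and their area is in proportion to the share of T cells of the library. Cluster 50 (magenta), which held 185 of the 190 DN T Cells, lies apart at the bottom and took a larger share in the TSF libraries, and clusters 6 and 97 at the right were small at day 16.

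The second clustering, run by the authors on T cells alone, gave 181 sub-clusters with T cells of these libraries, from 2 to 41 cells each with a median of 17. Each carried only 1 of the 2 types, and 10 were DN T Cells, with 6 to 27 cells. In 40 of the 181 over 50% of the cells came from 1 library, most often CM at day 16 (17 sub-clusters), then TSF a (10), TSF at day 16 (8), CM at day 11 (3) and TSF b (2). The 10 DN sub-clusters were spread unevenly over the libraries, and 3 with uneven counts, chosen after their values were seen, are given. Sub-cluster H.40 held 13 and 8 cells in TSF a and b, none in TSF at day 16, and 1 and 2 in CM at day 11 and day 16. Sub-cluster H.87 held 9 cells in each library of day 16, and none in CM at day 11, 1 in TSF a and 3 in TSF b. Sub-cluster H.102 held 9 cells in TSF at day 16 and 1 to 3 in each of the other libraries. With so few cells these counts describe the libraries and allow no comparison of conditions. Another 20 cells of 2 further sub-clusters were left unassigned by the authors, between 2 and 6 per library, with a median of 1120 UMIs, and counting them as T cells moved no ratio of TSF to CM outside its interval.

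T cells with very many UMIs were few and lay in a few clusters. Of 73 T cells with at least 5000 UMIs, 28 were in cluster 118, which held 113 T cells and had the highest median depth (3077 UMIs), 14 in cluster 104, 8 in cluster 50 and 7 in cluster 136. By library they were 7 in CM at day 11 (1.22% of T cells), 15 and 16 in TSF a and b (2.06% and 2.41%), 17 in CM at day 16 (2.59%) and 18 in TSF at day 16 (3.15%). The ratio of TSF to CM was 1.83 at day 11 (interval 0.786 to 4.89) and 1.22 at day 16 (interval 0.592 to 2.51), so neither differed from 1 beyond counting error. The authors had put 1608 cells of these libraries into a class of doublets, which was left out of the annotated cells, and no doublet caller was run here.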

How the data were processed

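Lung suspensions were made into 5' 10x Genomics libraries. The authors used Cell Ranger and Seurat 4.1.0 and the build mm10, GRCm38.p6 (submitters' processing notes), to which the CD90.1 sequence was appended, corrected ambient RNA with SoupX, removed cells with low counts or high mitochondrial content, clustered the merged cells and annotated clusters by hand. Per cell, the authors deposited the corrected UMI counts and number of genes, the deposited percent of mitochondrial UMIs, the cell class and type, cluster numbers and the UMAP position, a deposited score without unit. Among the cells used the lowest values were 800 UMIs and 202 genes, and the highest mitochondrial share was 9.99%. The deposited counts of cancer cells with a UMI of a gene came from the table of cancer cells, whose fold changes, p-values and q-values, like the deposited gene set scores, were the authors' own comparisons and were not used. Cells of 2 further libraries in the table were not used here.

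Shares were taken over annotated cells, without doublets and unknown cells, or over T cells, with exact Clopper-Pearson 95% intervals. Ratios of shares had exact conditional intervals for 2 rates, and ratios of T cells per B or NK cell conditional odds ratio intervals. TSF day 11 was the mean of libraries a and b, with intervals from their pooled counts. Lungs were pooled, so these intervals cover counting error only. Without a matrix, cells could not be thinned to equal depth, and ranges of UMIs were compared instead. Every cell type of the class was reported. Some genes of the lists are not reported here. The members, lists and settings were chosen with earlier results of these data known, and the UMI ranges, the 5000 UMI limit and the clusters described were chosen after seeing the data. The interval code was tested on simulated data. Scripts ran in Python 3.11.15 with scipy 1.17.1 for intervals, pandas 2.3.3 and numpy 2.4.6 for tables, and matplotlib 3.10.9 for plots.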

Additional observations from a re-analysis of the deposited data

Results flagged for a closer look

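In 4 of the 16 initial clusters the share of T cells was on one side of CM in TSF a and b and on the opposite side in TSF at day 16. The difference between days was not tested, since each group counted as 1 sample. The log2 ratio of TSF to CM at day 16 minus that at day 11 was 2.21 for cluster 59, 0.86 for cluster 53, 0.53 for cluster 3 and -0.81 for cluster 104. Cluster 59 was the only one of the 4 with an interval apart from 1 at either day over all T cells (3.88 at day 16, interval 2.19 to 7.26), and its ratio at day 11 was 0.836 (interval 0.519 to 1.38). Among T cells of at least 1500 UMIs cluster 53 also had one, with 1.81 at day 16 (interval 1.14 to 2.89). Clusters 53 and 3 had ratios of 1.21 and 1.10 at day 16 after 0.665 and 0.760 at day 11, and cluster 104 had 0.766 after 1.34. The T cell share of annotated cells and the DN share of T cells kept the direction of TSF against CM at both days.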

How the results depend on the processing

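Over 24 results, 136 of 150 recomputed values stayed within the main interval. For the T cell share at day 16 the ratio of TSF to CM became 0.841 without granulocytes in the denominator, 0.512 among leukocytes and 0.837 among leukocytes without granulocytes, and for the type T Cells 0.805, 0.491 and 0.802. The TSF ratio of day 16 to day 11 of the T cell share turned to 1.12 and 1.10 in the settings without granulocytes, and was 0.654 among leukocytes. The granulocyte share of the TSF library of day 16 is part of these denominators by construction. At 1500 UMIs T cells per B cell gave 1.38 at day 11 and 1.35 at day 16, and the ratio of median UMIs per T cell at day 11 gave 1.02. Leaving out TSF a or TSF b gave that median ratio a range of 0.897 to 1.02, and the cause was not tested. Among 192 cluster values 188 stayed within their interval, and the rise of cluster 53 in CM turned to 0.994 at 1500 UMIs. No paired analysis was possible because only TSF at day 11 has more than 1 library. Leaving out the largest cell type leaves only DN T Cells, so that setting gave no value. DN ratios rest on 21 to 50 cells per library.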

Other observations

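At a limit chosen after seeing the data, 26 T cells had at least 8000 UMIs, and 23 of them were in TSF libraries, which held 1964 of the 3192 T cells. They were 1 of 572 T cells in CM at day 11, 8 of 729 and 8 of 664 in TSF a and b, 2 of 656 in CM at day 16 and 7 of 571 in TSF at day 16. The ratio of TSF to CM was 6.58 at day 11 (interval 1.02 to 276) and 4.02 at day 16 (interval 0.766 to 39.7). At a limit of 4000 UMIs the day 16 ratio was 0.565 (interval 0.352 to 0.889), the opposite direction, beside the greater depth of the CM library of day 16. Of the 26 cells, 12 were in cluster 118, 8 in cluster 104, 3 in cluster 50 and 3 in cluster 136, and 1 was a DN T cell. B cells of at least 8000 UMIs numbered 2 of 568 in CM at day 11, 0 of 685 and 1 of 678 in TSF a and b, 2 of 430 in CM at day 16 and 4 of 367 in TSF at day 16.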
